A study of Mus musculus with 10 samples.

Results

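The genes described here encode the proteasome, its regulators and its assembly factors in mouse gastrocnemius, a large calf muscle. They are the rows of the deposited gene table whose symbols start with Psma, Psmb, Psmc, Psmd, Psme, Psmf or Psmg, without pseudogene symbols, and whose counts summed to 50 or more over the 10 libraries. This gave 50 of 21956 genes. Psma8, the testis form of an alpha subunit, lay just inside that minimum with a summed count of 51, and Psmb11, the thymus catalytic subunit, lay just outside it with 2. Of the 50 members, 49 passed the filter on low counts, all but Psma8. They were split into 42 constitutive members, 41 of them tested, and 5 members linked to interferon, namely Psmb8, Psmb9, Psmb10, Psme1 and Psme2. A further 3 that share the spelling only, or are a gene copy, are given apart at the end: Psmc3ip, Psme3ip1 and Psme2b.

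The 10 libraries are poly(A) RNA from wild-type (WT) mice, 5 labelled Sham and 5 labelled HLI, read here as hindlimb ischaemia, which the labels leave unspelled. Both groups share the WT genotype and carry no other stated allele or agent. Age, strain, time after the procedure and whether replicates are separate animals are not stated in the labels, so the spread that p-values measure may be technical. FGF13 of endothelial cells and the degradation of HIF-1α, a protein that the proteasome destroys when oxygen is plentiful, are named in the series title. The contrast of HLI with Sham asks here which proteasome transcripts differ between the conditions.

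The proteasome degrades proteins that carry chains of ubiquitin. Its barrel, the 20S core, is a stack of alpha rings, which form the gate, around beta rings, which hold the proteolytic sites. The 19S regulatory particle caps the barrel: a ring of ATPases unfolds the substrate, and non-ATPase subunits bind ubiquitin and cut it off. Interferon-γ induces 3 alternative catalytic subunits that replace the constitutive ones in newly built cores and form the immunoproteasome, which is abundant in immune cells and shapes peptides for MHC class I. In skeletal muscle the ubiquitin-proteasome system is a main route of myofibrillar protein breakdown.

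Total estimated counts ran from 16556385 to 22136299 per library. As a check of the labelled tissue, all 12 muscle fibre markers were detected in every library, at a mean of 785 TPM or more. TPM is transcripts per 1000000, a level per gene length. Some libraries stood apart or ran against their labels. Myh3, the embryonic myosin heavy chain of newly formed fibres, stood at 164, 3.97, 5.63, 5.09 and 4.97 CPM in Sham replicates 1 to 5 and at 7.71, 109, 442, 165 and 80.0 CPM in HLI replicates 1 to 5, so the library labelled Sham replicate 1 was high and the library labelled HLI replicate 1 low. Whether the labels of this pair were exchanged cannot be settled from the files, so values without both are given for some of the results. CPM is counts per 1000000, with library sizes scaled by TMM. HLI replicate 3 had the lowest muscle fibre level of all.

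Per gene length, the core and 19S transcripts were mostly the abundant ones of the set. Mean levels over the 10 libraries ran from 57.2 TPM (Psma2) to 193 TPM (Psma6) in the alpha ring, apart from the untested Psma8 at 0.383 TPM. They ran from 114 (Psmb1) to 201 TPM (Psmb7) in the constitutive beta ring, from 68.7 (Psmc6) to 201 TPM (Psmc3) in the ATPase ring, and from 67.6 (Psmd14) to 231 TPM (Psmd8) among the other 19S subunits. Subunits that the assembled core holds in equal copy number thus differed in transcript level. Assembly chaperones, which leave or are degraded once the particle is built, stood lower, from 11.6 (Psmg3) to 26.3 TPM (Psmg2). The alternative activators were intermediate, with Psme4 at 59.8 TPM and Psme3 at 49.1 TPM. Immunoproteasome subunits were low, with Psmb8 at 33.3 TPM, Psmb10 at 17.4 TPM and Psmb9 at 7.76 TPM.

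**Figure D1:**
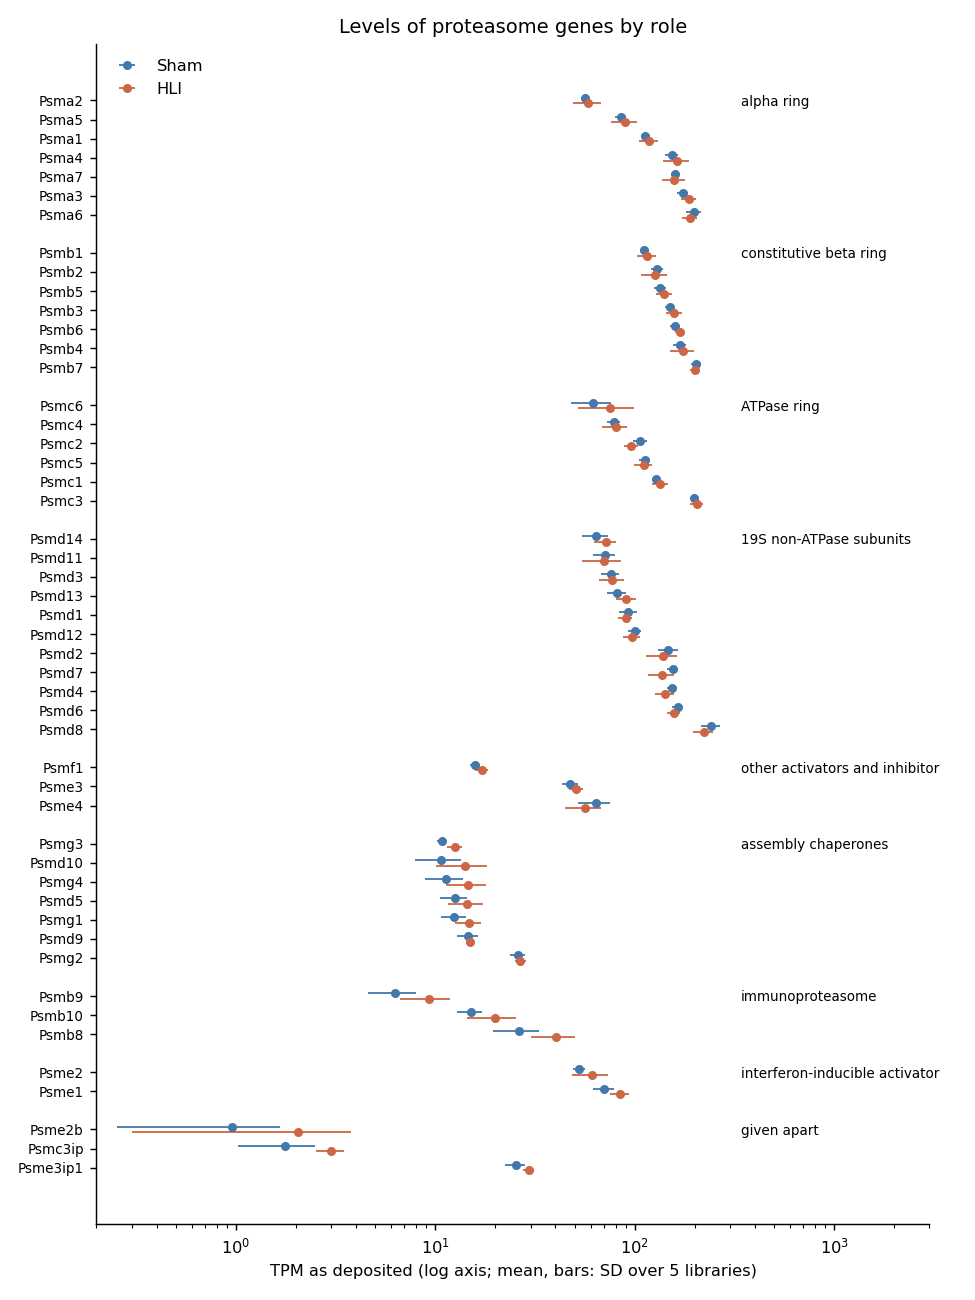
Deposited TPM (horizontal log axis) of the 49 tested proteasome genes, grouped by role, as means over 5 Sham (blue) and 5 HLI (orange) libraries with SD bars. Core and 19S subunits lie between 57.2 and 231 TPM over all libraries, and assembly chaperones and immunoproteasome subunits lie lower, between 7.76 and 33.3 TPM.

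Between HLI and Sham, the immunoproteasome subunits had higher mean levels and most constitutive members slightly lower ones, and none of these differences passed the test. With edgeR's quasi-likelihood test and Benjamini-Hochberg adjustment over 13404 genes, 0 of 41 constitutive and 0 of 5 interferon-linked members were called, where 0% of all genes were. At an unadjusted p under 0.05 edgeR gave 2262 genes, or 16.9% of all. Leaving out 1 library gave 2781, 1173, 2624, 1401 or 1188 genes for Sham replicates 1 to 5. For HLI replicates 1 to 5 it gave 2355, 2073, 1160, 4181 or 1568 genes. DESeq2 called 45 genes, or 0.313% of those it adjusted, with 0 members among them. Without Sham replicate 1 and HLI replicate 1 edgeR called 54 genes, again with 0 members. Adjusted p-values of the 49 members ran from 0.29 to 0.97. In whole tissue, fewer cells of a type and less RNA per cell cannot be told apart.

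Psmb8 (β5i, ENSMUSG00000024338), the chymotrypsin-like subunit of the immunoproteasome, had the smallest unadjusted p of all members with edgeR, while with DESeq2 that of Psmd8 was smaller. It stood at 20.6, 15.02, 13.7, 15.7 and 13.3 CPM in Sham replicates 1 to 5. It stood at 24.5, 20.6, 23.0, 16.8 and 20.0 CPM in HLI replicates 1 to 5. The groups overlapped through Sham replicate 1, which lay within the HLI range, while the other 4 Sham libraries lay below all HLI libraries, of which replicate 4 was the lowest. The means were 15.7 ± 2.93 CPM in the Sham group and 21.0 ± 2.94 CPM in the HLI group (SD, n = 5). Its log2FC, the log2 of HLI over Sham from the edgeR fit, was 0.42 (SE 0.15, edgeR unadjusted p = 0.0138, adjusted p = 0.29). The exact two-sided permutation p over all assignments of the 10 libraries was 0.0238, against a smallest possible value of 0.0079. Without Sham replicate 1 the log2FC was 0.54 (edgeR adjusted p = 0.16), and without Sham replicate 1 and HLI replicate 1 it was 0.48 (adjusted p = 0.13). Over fits that left out 1 library the log2FC ran from 0.36 to 0.54.

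Psmb9 (β1i, ENSMUSG00000096727), which replaces the caspase-like subunit and cuts after hydrophobic residues, was high in many of the same libraries. Its levels were 6.73, 3.88, 4.29, 4.98 and 4.04 CPM in Sham replicates 1 to 5 and 6.12, 5.37, 7.64, 5.21 and 6.96 CPM in HLI replicates 1 to 5. The highest Sham library was again replicate 1, above 3 of the HLI libraries, and the other Sham libraries lay below all HLI libraries. The log2FC was 0.39 (SE 0.19, edgeR adjusted p = 0.31). Over fits that left out 1 library it ran from 0.31 to 0.54, with 0.54 without Sham replicate 1. Psmb10 (β2i, ENSMUSG00000031897), which replaces the trypsin-like subunit, stood at 12.4, 12.4, 11.8, 11.4 and 9.87 CPM in Sham and at 17.4, 14.2, 12.2, 8.96 and 13.4 CPM in HLI. HLI replicate 4 was its lowest library of all and HLI replicate 1 its highest. The log2FC of Psmb10 was 0.19 (SE 0.16, adjusted p = 0.50), and 0.072 without HLI replicate 1 or 0.29 without HLI replicate 4.

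Psme1 and Psme2 encode the 2 kinds of subunit of PA28αβ, the interferon-inducible activator that caps the core without ATP. Psme1 stood at 48.4, 49.1, 36.8, 50.1 and 45.0 CPM in Sham and at 49.9, 51.4, 44.1, 46.6 and 47.9 CPM in HLI, a log2FC of 0.064 (SE 0.10). Psme2 stood at 27.6, 26.7, 27.5, 30.3 and 30.8 CPM in Sham and at 31.7, 31.5, 30.2, 24.8 and 25.6 CPM in HLI, a log2FC of 0.0086 (SE 0.10). The HLI libraries of both genes were spread around the Sham libraries, and the direction of Psme2 turned under other scalings, for example to -0.0080 with DESeq2's size factors. Of the 5 genes, 5 had values above 0, where 53.8% of all genes did, and their median log2FC was 0.19 beside 0.029 for all genes tested. That median ran from 0.072 without HLI replicate 1 to 0.29 without HLI replicate 4. Without Sham replicate 1 and HLI replicate 1 it was 0.099. In unadjusted terms 1 of the 5, Psmb8, was higher at p under 0.05, and 10.7% of all genes were. The exact permutation p of Psmb9, Psmb10, Psme1 and Psme2 was 0.0635, 0.341, 0.54 and 0.992, which with Psmb8 makes 5 such tests.

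**Figure D2:**
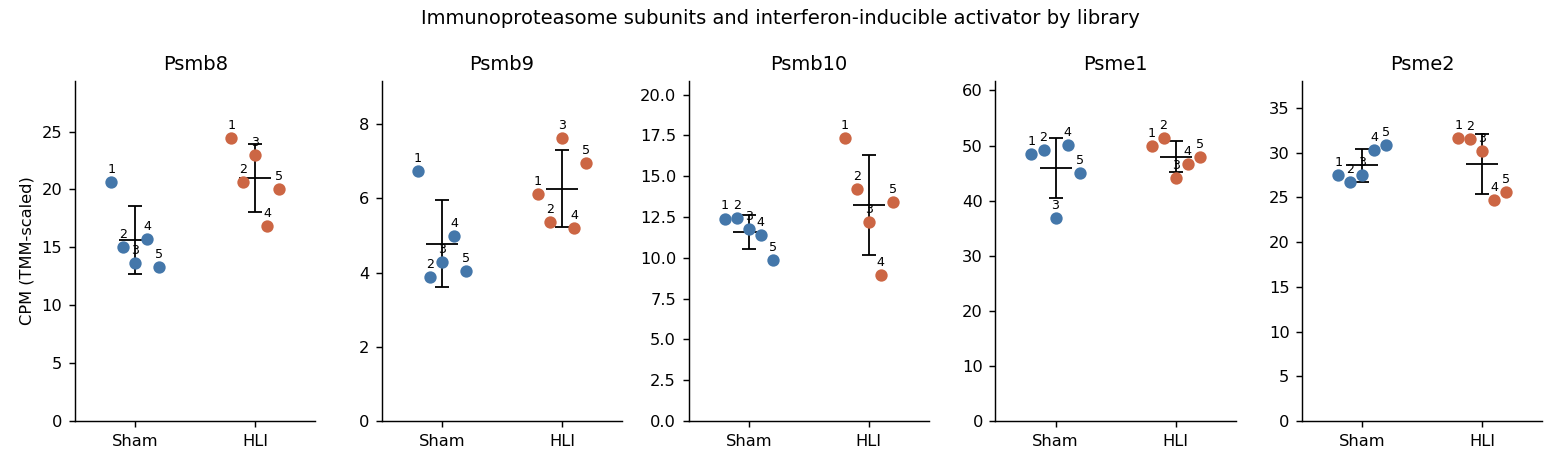
CPM of the 3 immunoproteasome subunits and the 2 subunits of the interferon-inducible activator in each library; digits are replicate numbers, horizontal bars are means and vertical bars SD (n = 5). Sham replicate 1 reaches the HLI range for Psmb8 and Psmb9, HLI replicate 4 is the lowest HLI library for the 3 subunits, and Psme1 and Psme2 overlap throughout.

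Because an immunoproteasome subunit takes the place of a constitutive one, the pairs were set side by side as ratios of deposited TPM, which need no scaling between libraries. Psmb8 amounted to 29.9, 15.9, 18.2, 19.001 and 16.0% of Psmb5 in Sham replicates 1 to 5. In HLI replicates 1 to 5 it amounted to 30.9, 28.3, 36.5, 18.1 and 29.8%. The means were 19.8 ± 5.80% and 28.7 ± 6.68% (SD, n = 5), and apart from Sham replicate 1 and HLI replicate 4 the groups were separate. The ratio of Psmb9 to Psmb6 was 6.26, 3.04, 3.84, 3.88 and 2.97% in Sham and 5.25, 4.63, 7.43, 3.93 and 6.20% in HLI. The ratio of Psmb10 to Psmb7 was 9.20, 7.5004, 8.08, 6.74 and 5.64% in Sham and 12.1, 10.0, 11.7, 5.61 and 10.3% in HLI. In each of the 3 pairs HLI replicate 4 gave the lowest HLI ratio and Sham replicate 1 the highest Sham ratio. Transcript ratios are not ratios of assembled subunits, and no test was made of them.

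**Figure D3:**
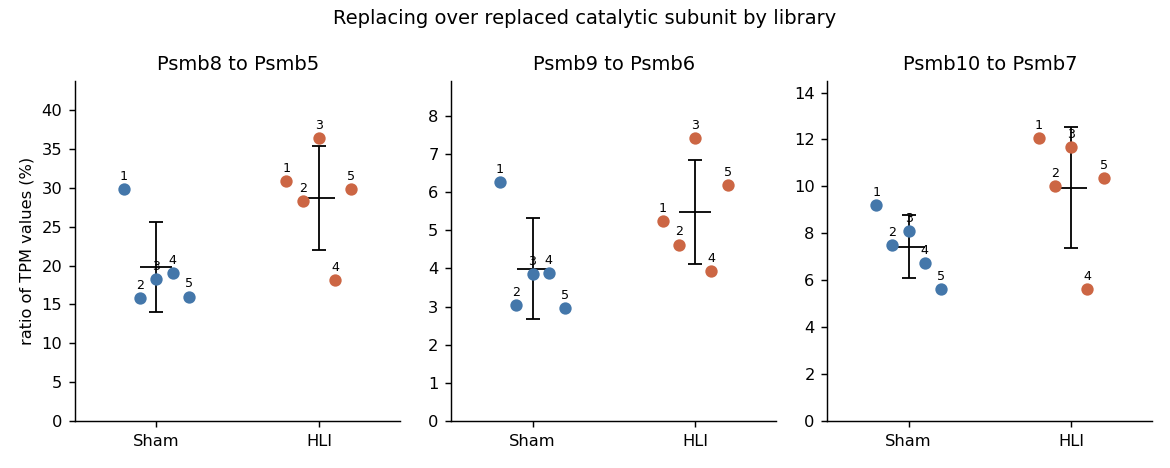
Deposited TPM of each immunoproteasome subunit as a percentage of the constitutive subunit it replaces, by library; digits are replicate numbers, bars are means and SD (n = 5). HLI means are 28.7%, 5.49% and 9.94% against 19.8%, 3.997% and 7.43% in Sham. For Psmb8 to Psmb5 the groups overlap through Sham replicate 1 and HLI replicate 4. For Psmb9 to Psmb6 they overlap through Sham replicate 1 only, and for Psmb10 to Psmb7 through HLI replicate 4 only.

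The replaced subunits themselves had slightly lower means in HLI after TMM scaling. Psmb5 (β5), the chymotrypsin-like subunit, stood at 63.0, 77.5, 66.5, 70.5 and 78.8 CPM in Sham and at 72.6, 63.8, 53.2, 79.0 and 58.4 CPM in HLI, a log2FC of -0.12 (SE 0.12, edgeR adjusted p = 0.57). Psmb6 (β1), the caspase-like subunit, stood at 63.5, 78.2, 71.3, 79.9 and 84.0 CPM in Sham and at 68.7, 68.5, 60.7, 81.9 and 66.3 CPM in HLI (-0.12, SE 0.11, log2 scale). Psmb7 (β2), the trypsin-like subunit, stood at 119, 147, 129, 149 and 155 CPM in Sham and at 127, 125, 92.3, 141 and 115 CPM in HLI (-0.22, SE 0.13, log2 scale). In CPM all 3 were lowest in HLI replicate 3, and their HLI and Sham ranges overlapped. In deposited TPM, Psmb6 was instead highest in that library, at 178 TPM. Without HLI replicate 3 the log2FCs of Psmb5, Psmb6 and Psmb7 were -0.058, -0.079 and -0.14, and without HLI replicate 4 they were -0.21, -0.20 and -0.30. On unscaled TPM the log2 differences of Psmb5 and Psmb6 were above 0, at 0.066 and 0.076, where the median of all genes was 0.19.

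Promoter stretches of 4 genes of the pairs just described are printed, to show which hold a pattern tied to proteasome stress. They end at the base before the start site and come from RefSeq, build GRCm38.p6, a newer build than the mm8 that the submitters' processing notes name. Psmb9 lies back to back with Tap1, the peptide transporter of class I presentation, and the 225 bases between the start sites serve as the upstream stretch of both genes. That stretch is shown on the strand of Psmb9 (chr17:34187331-34187555, minus strand), followed by that of Psmb8 (chr17:34197945-34198194, plus strand) on the same chromosome. For the replaced subunits the last 100 bases are shown, of Psmb5 (chr14:54617996-54618095, minus strand) and of Psmb6 (chr11:70525257-70525356, plus strand). Capitals mark a match to TGACNNNGC, the antioxidant response element that NRF1 reads, in Psmb5 and Psmb6. The stretches of Psmb9 and Psmb8 hold no match to the patterns given here.
Psmb9 and Tap1: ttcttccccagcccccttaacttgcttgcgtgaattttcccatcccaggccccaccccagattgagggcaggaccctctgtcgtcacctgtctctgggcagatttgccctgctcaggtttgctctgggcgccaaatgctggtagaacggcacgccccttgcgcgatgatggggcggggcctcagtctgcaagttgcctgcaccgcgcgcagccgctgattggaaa
Psmb8: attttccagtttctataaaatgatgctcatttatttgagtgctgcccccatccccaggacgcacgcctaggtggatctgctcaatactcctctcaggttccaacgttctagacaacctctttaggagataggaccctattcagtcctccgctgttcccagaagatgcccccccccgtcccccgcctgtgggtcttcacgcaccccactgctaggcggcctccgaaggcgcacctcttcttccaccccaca
Psmb5: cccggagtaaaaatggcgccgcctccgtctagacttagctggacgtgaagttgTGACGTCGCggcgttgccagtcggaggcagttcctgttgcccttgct
Psmb6: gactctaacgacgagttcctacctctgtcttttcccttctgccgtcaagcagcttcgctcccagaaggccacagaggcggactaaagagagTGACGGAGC

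These patterns were searched on both strands from 250 bases before to 50 after each start site, in the 42 members that the promoter table holds. TGACNNNGC matched in 6 of 34 constitutive members (17.6%), namely Psmb5, Psmb6, Psmc6, Psmd9, Psmd12 and Psme4, and in 0 of the 5 interferon-linked ones, against 13.99% of 27025 genes. GAAA followed after any 2 bases by GAAA, a pattern of interferon regulatory factors, matched in Psme1 and in 4 of 34 constitutive members (Psmb3, Psmd4, Psmd9 and Psmg4), against 3.99% of all genes. The patterns can overlap in their bases. A match describes letters, not a bound site.

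Tap1 was, like Psmb9, high in Sham replicate 1 and lowest among the HLI libraries in replicate 4, with 20.4, 12.7, 13.0, 13.3 and 13.5 CPM in Sham replicates 1 to 5 and 22.3, 16.8, 22.0, 13.8 and 22.6 CPM in HLI replicates 1 to 5. Its log2FC was 0.42 (SE 0.18, edgeR adjusted p = 0.29). Of 11 genes of class I antigen processing, a textbook list, 0 passed the test, 11 had values above 0 and 5 were higher at an unadjusted p under 0.05 (45.5%, against 10.7% of all genes). B2m, the light chain of class I molecules, averaged 315 ± 60.3 CPM in Sham libraries and 426 ± 70.6 CPM in HLI libraries. H2-K1, a class I heavy chain, had 198 ± 35.3 and 271 ± 26.1 CPM, and Nlrc5, the transactivator of class I genes, had 4.61 ± 1.16 and 8.06 ± 2.42 CPM (SD, n = 5). The log2FCs of B2m, H2-K1 and Nlrc5 were 0.44, 0.45 and 0.81, each with an edgeR adjusted p of 0.29.

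Of 11 tested genes of interferon signalling, 0 passed the test and 9 had values above 0, 2 of them at an unadjusted p under 0.05 (18.2%, where 53.8% of all genes were above 0 and 10.7% higher at that p). Irf1, a factor that drives immunoproteasome genes, averaged 21.0 ± 3.67 CPM in Sham libraries and 24.0 ± 4.89 CPM in HLI libraries. Irf8, a factor of myeloid cells, had 12.5 ± 3.76 and 23.0 ± 7.40 CPM, and Isg15, a ubiquitin-like interferon-induced protein, had 2.87 ± 0.985 and 4.72 ± 1.82 CPM (SD, n = 5). Ifng, the cytokine itself, did not pass the filter on low counts, with at most 0.326 CPM in any library and no counts in several.

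Leukocyte markers were high and low in much the same libraries as the immunoproteasome subunits. Of 18 markers, 14 were tested and 0 passed the test. Of the 14, 12 had values above 0 (53.8% of all genes did), and 10 were higher at an unadjusted p under 0.05 (71.4%, against 10.7% of all genes), with a median log2FC of 0.97. Their summed level ran from 689 to 1809 CPM in Sham and from 1039 to 3269.7 CPM in HLI. The highest Sham library was replicate 1 and the lowest HLI library replicate 4, as for Psmb8. Of the defining markers, Cd3e and S100a8 had no counts in at least 1 library, whereas the pan-leukocyte gene Ptprc was present in all, from 9.28 to 93.2 CPM. As mean log2 CPM centred on the 10 libraries, the leukocyte score was 0.32, -0.74, 0.44, -0.95 and -1.37 in Sham replicates 1 to 5 and 1.24, 0.074, 1.01, -0.56 and 0.54 in HLI replicates 1 to 5. The mean of Psmb8, Psmb9 and Psmb10 on that scale was 0.18, -0.23, -0.25, -0.13 and -0.37 in Sham and 0.38, 0.14, 0.28, -0.19 and 0.22 in HLI. Sham replicate 3 differed between the lists, with a leukocyte score above Sham replicate 1 and an immunoproteasome score near the other Sham libraries. The part of leukocytes in the immunoproteasome levels was not tested. Of the other cell types checked, 7 of 10 endothelial and 5 of 6 fibroblast markers had values above 0 (53.8% of all genes did). Of these markers 0 passed the test.

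**Figure D4:**
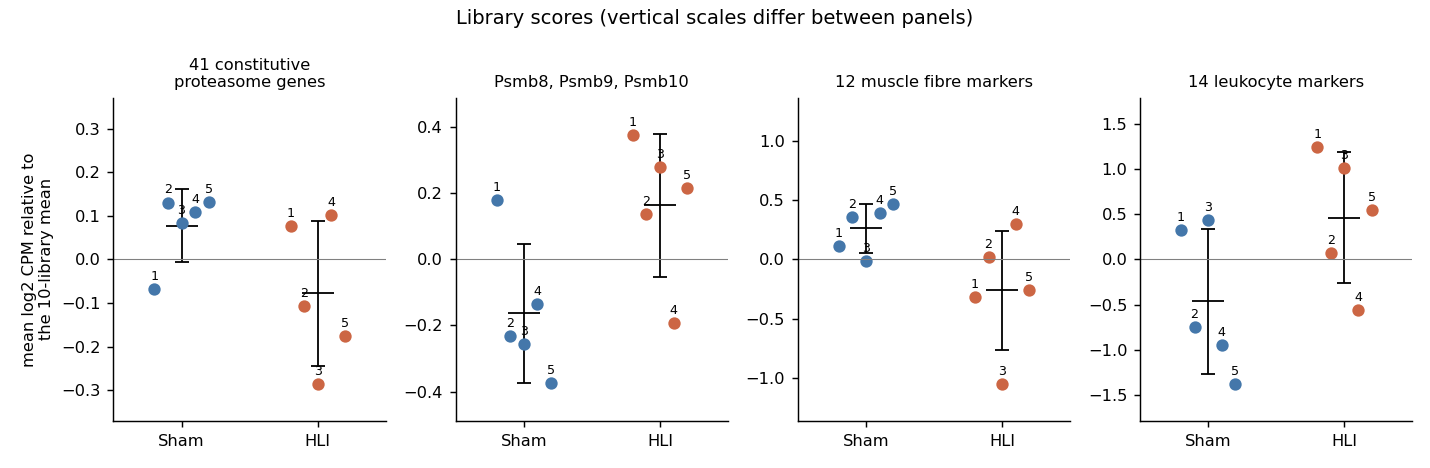
Mean log2 CPM relative to the 10-library mean of 4 gene lists in each library; digits are replicate numbers, bars are means and SD (n = 5), and vertical scales differ between panels. HLI replicate 3 is lowest for constitutive proteasome genes (-0.29) and for muscle fibre markers (-1.05), and HLI replicate 4 lies within the Sham range in all 4 panels.

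Constitutive members were mostly a little lower in HLI after TMM scaling. Of 41 tested, 36 had log2FCs below 0 (87.8%, against 46.2% of all genes), and 5 were lower at an unadjusted p under 0.05 (12.2%, against 6.15% of all genes). None had groups that did not overlap, while complete separation was found in 0.873% of all genes with HLI lower and in 0.776% with HLI higher. Their median log2FC was -0.15, beside 0.029 for all genes. The direction depended on scaling: on unscaled TPM the median was 0.045, still below the 0.19 of all genes, and 15 of 41 were below 0. The median was -0.093 without HLI replicate 3, and leaving out HLI replicate 4 gave -0.21. Without Sham replicate 1 and HLI replicate 1 the median was -0.23. Leaving out Sham replicates 1 to 5 in turn changed the count of 5 to 8, 1, 4, 3 and 1. For HLI replicates 1 to 5 it became 8, 3, 3, 11 and 0. All genes at that p, in either direction, numbered 2262 with every library. They numbered 2781, 1173, 2624, 1401 and 1188 without Sham replicates 1 to 5. Without HLI replicates 1 to 5 they numbered 2355, 2073, 1160, 4181 and 1568. Without Sham replicate 1 and HLI replicate 1 there were 11 members and 2761 of all genes. Shares of lower genes alone are not given for these fits.

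**Figure D5:**
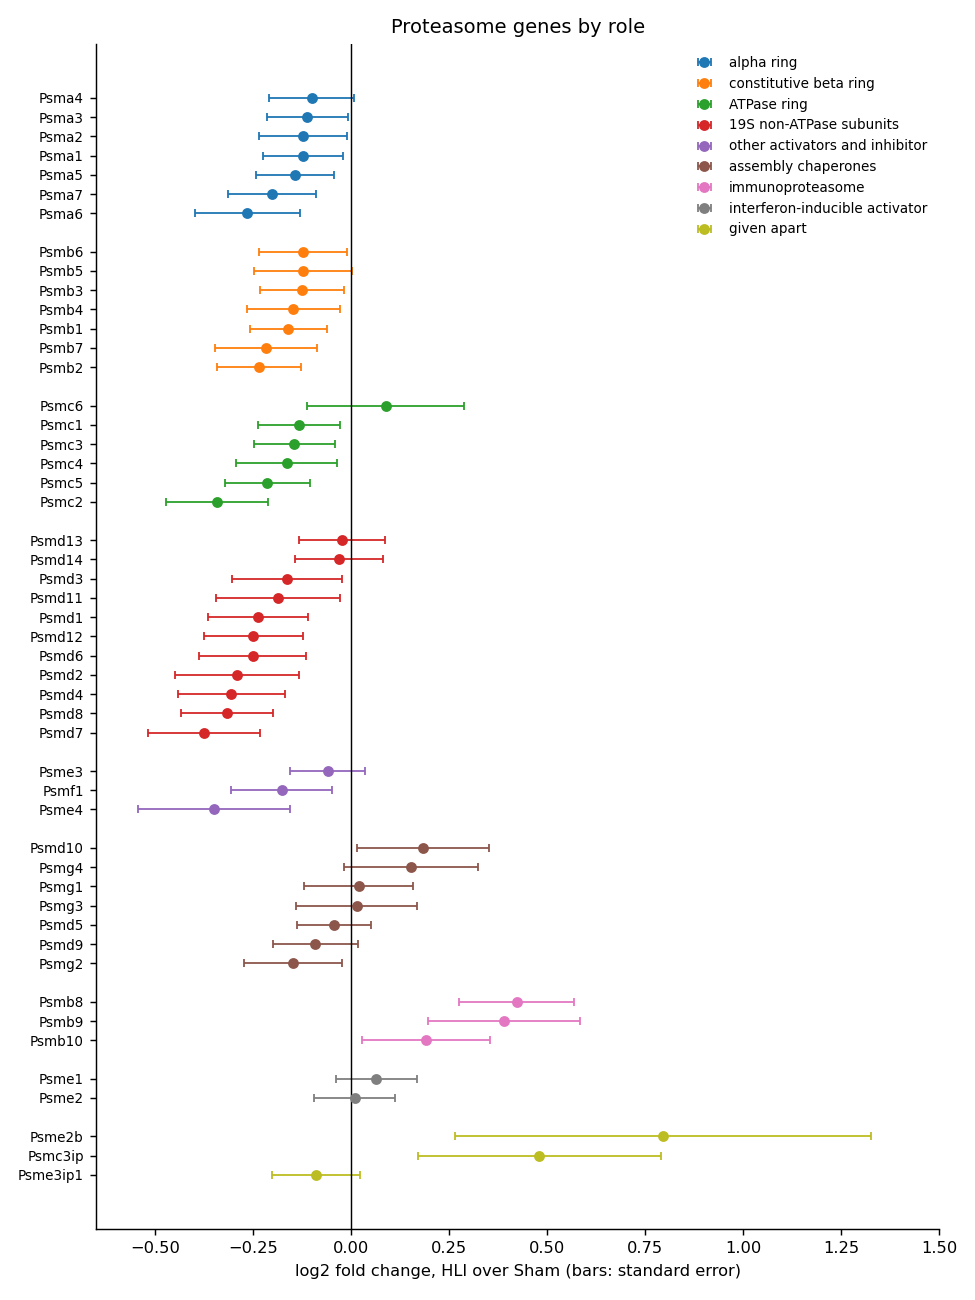
Log2FC (log2 fold change) of HLI over Sham (points) with its standard error (bars) from edgeR for the 49 tested proteasome genes, grouped and coloured by role. The 7 tested alpha, 7 beta and 11 non-ATPase subunits lie below 0 after TMM scaling, and Psmb8 and Psmb9 lie at 0.42 and 0.39. On unscaled TPM (all-gene median 0.19) many of these alpha and beta subunits are above 0. Of the non-ATPase subunits only Psmd3, Psmd13 and Psmd14 are above 0 on that scale. There, 15 of 41 constitutive members are below 0.

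Among the 19S non-ATPase subunits, which form the lid and scaffold, 11 of 11 were below 0 after TMM scaling, against 46.2% of all genes. At an edgeR unadjusted p under 0.05, 3 were lower (27.3%, against 6.15% of all genes). Psmd8 (RPN12, ENSMUSG00000030591), a lid subunit, stood at 192, 205, 214, 197 and 183 CPM in Sham replicates 1 to 5 and at 182, 151, 138, 184 and 140.2 CPM in HLI replicates 1 to 5. HLI replicates 2, 3 and 5 lay far below the Sham libraries and replicates 1 and 4 at their lower edge. The log2FC was -0.32 (SE 0.12, edgeR unadjusted p = 0.0185, adjusted p = 0.29). Psmd7 (RPN8, ENSMUSG00000039067), the partner of the deubiquitinase in the lid, stood at 130.3, 157, 141, 145 and 154 CPM in Sham and at 136, 107, 83.0, 135 and 99.6 CPM in HLI. It had the lowest log2FC of the constitutive members, -0.38 (SE 0.14), which was -0.28 without HLI replicate 3. Psmd4 (RPN10, ENSMUSG00000005625), a receptor for ubiquitin chains, stood at 102, 129, 112, 128 and 126 CPM in Sham and at 109, 98.6, 75.0, 116 and 84.2 CPM in HLI, with a log2FC of -0.31 (SE 0.14). In all 3 genes HLI replicate 3 was the lowest library in CPM, and HLI replicate 5 was the lowest in deposited TPM. At the other end, Psmd14, the deubiquitinase of the lid, and Psmd13 had log2FCs of -0.031 (SE 0.11) and -0.024 (SE 0.11). On unscaled TPM they were at 0.16 and 0.15, still below the 0.19 of all genes.

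In the ATPase ring, the motor that unfolds substrates, 5 of 6 members had values below 0, against 46.2% of all genes. At an edgeR unadjusted p under 0.05, 1 was lower (16.7%, against 6.15% of all genes). Psmc2 (RPT1, ENSMUSG00000028932) stood at 90.2, 122, 109, 117 and 122 CPM in Sham and at 97.0, 83.9, 71.5, 106 and 83.4 CPM in HLI, a log2FC of -0.34 (SE 0.13, edgeR unadjusted p = 0.0220, adjusted p = 0.29). Sham replicate 1 was its lowest Sham library and HLI replicates 1 and 4 lay above it. Psmc6 (RPT4, ENSMUSG00000021832) did not follow the ring. It stood at 65.8, 70.6, 103, 87.6 and 68.1 CPM in Sham and at 59.3, 76.7, 105, 114 and 65.3 CPM in HLI, a log2FC of 0.088 (SE 0.20, adjusted p = 0.81). It was high in Sham replicate 3 and in HLI replicates 3 and 4, and its lowest library was HLI replicate 1. Without HLI replicate 4 its log2FC was -0.058. In HLI replicate 3, where most constitutive members were low in CPM, Psmc6 and Psmd10 lay above the highest Sham library.

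In the core, the 7 tested alpha subunits had log2FCs from -0.27 (Psma6) to -0.10 (Psma4), and the 7 constitutive beta subunits from -0.24 (Psmb2) to -0.12 (Psmb6). Psmb2 (β4, ENSMUSG00000028837), a non-catalytic beta subunit, stood at 61.3, 69.2, 67.0, 65.9 and 65.6 CPM in Sham and at 67.9, 52.8, 46.4, 56.6 and 55.8 CPM in HLI. Sham libraries lay close together, and 4 HLI libraries lay below them, while HLI replicate 1 was within their range. Its log2FC was -0.24 (SE 0.11), its edgeR unadjusted p 0.04998 and its adjusted p 0.30. On unscaled TPM 5 of 7 alpha and 5 of 7 beta subunits had differences above 0, on a scale where the median of all genes was 0.19, and all of these were below that median.

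Of the activators and the inhibitor, Psme4 (PA200, ENSMUSG00000040850), a large single-chain cap of the core, had the widest spread. It stood at 179, 252.4, 283, 266 and 221 CPM in Sham and at 152, 184, 158, 288 and 160.5 CPM in HLI. HLI replicate 4 was its highest library of all and the other HLI libraries lay near or below Sham replicate 1, the lowest Sham library. The log2FC was -0.35 (SE 0.19, edgeR adjusted p = 0.34), and leaving out HLI replicate 4 gave -0.57 (adjusted p = 0.0813). Psme3 (PA28γ), the nuclear activator, averaged 64.1 ± 2.66 CPM in Sham libraries and 61.4 ± 6.29 CPM in HLI libraries, a log2FC of -0.060 (SE 0.096). Psmf1 (PI31), which binds the core and was described as its inhibitor, had 22.2 ± 2.23 and 19.6 ± 3.14 CPM (-0.18, SE 0.13, log2 scale). On unscaled TPM both were above 0 but below the median of all genes (0.19), at 0.098 and 0.10.

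Assembly chaperones lay around 0, with 4 of 7 above it, where 53.8% of all genes were. Their median log2FC was 0.014, beside 0.029 for all genes. Psmd10 (gankyrin), a chaperone of the ATPase base, stood at 9.19, 7.41, 12.1, 8.35 and 7.75 CPM in Sham and at 11.5, 9.70, 12.3, 8.67 and 8.64 CPM in HLI (0.18, SE 0.17, log2 scale). Psmg4, a chaperone of the alpha ring, stood at 4.21, 3.73, 3.21, 3.03 and 3.25 CPM in Sham and at 4.35, 3.98, 4.14, 3.22 and 3.70 CPM in HLI (0.15, SE 0.17, log2 scale). Their groups overlapped through most libraries. Psmg1 and Psmg3, which also build the alpha ring, had log2FCs of 0.019 (SE 0.14) and 0.014 (SE 0.15), and the direction of Psmg3 turned to -0.0020 with DESeq2's size factors. These 4 and Psmc6 were the 5 constitutive members above 0. The 31 lower members outside the 5 with the smallest p ran from -0.35 to -0.024, with edgeR adjusted p-values from 0.32 to 0.91.

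By library, HLI replicates did not behave alike. Of 41 constitutive members, 36 lay below the lowest Sham library in HLI replicate 3, 33 in replicate 5 and 23 in replicate 2. In replicates 1 and 4 it was 5 and 3, and 7 and 6 lay above the highest Sham library, as did 25.8% and 17.7% of all genes. Over all genes tested the share below the lowest Sham library was 34.4% in replicate 3, 20.8% in replicate 5, 17.7% in replicate 2, 27.7% in replicate 1 and 19.6% in replicate 4. HLI replicate 3 was the lowest of the 10 libraries for 31 of 41 constitutive members (75.6%) and for 26.5% of all genes. Counts in this paragraph are of TMM-scaled CPM, where HLI replicate 3 had the largest TMM factor, 1.23, against 0.91 to 1.08 elsewhere. In deposited TPM, without that scaling, the 42 constitutive members, Psma8 included, were also summed. The sums were 4092, 4470, 4424, 4030 and 4221 in Sham replicates 1 to 5. They were 4836, 3944, 4408, 4187 and 3976 in HLI replicates 1 to 5. On that scale HLI replicates 2 and 5 lay below all Sham libraries, HLI replicate 1 above all, and HLI replicates 3 and 4 within their range. Within Sham, replicate 1 was the lowest library for 31 of the 41, and for 20.0% of all genes. The score of the constitutive members, their mean log2 CPM relative to the 10 libraries, was -0.067, 0.13, 0.083, 0.11 and 0.13 in Sham replicates 1 to 5 and 0.078, -0.11, -0.29, 0.10 and -0.18 in HLI replicates 1 to 5.

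Muscle fibre markers were low in some of the same libraries as the constitutive members. Of 12 markers 0 passed the test and 11 had values below 0 (46.2% of all genes did), with a median log2FC of -0.50. At an edgeR unadjusted p under 0.05, 5 were lower (41.7%, against 6.15% of all genes). With DESeq2, 8 markers had an unadjusted p under 0.05 in either direction. So had 2767 of all genes with DESeq2, where edgeR gave 2262. The summed level of the markers ran from 142025 to 192402 CPM in Sham and from 61859 to 166231 CPM in HLI. No marker was at 0 in any library. Their score was 0.11, 0.36, -0.017, 0.39 and 0.47 in Sham replicates 1 to 5 and -0.32, 0.019, -1.05, 0.30 and -0.26 in HLI replicates 1 to 5. HLI replicate 3 was lowest and HLI replicate 4 within the Sham range in both lists. HLI replicate 1 was within the Sham range for the constitutive members and below it for the fibre markers. HLI replicate 2 was the reverse, below the Sham range for the constitutive members and within it for the fibre markers. The part of fibre RNA in the constitutive levels was not tested.

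Genes that work with the proteasome under other names were tested in the same way. Adrm1 (RPN13), another ubiquitin receptor of the 19S particle, averaged 68.7 ± 6.49 CPM in Sham libraries and 53.8 ± 9.65 CPM in HLI libraries, a log2FC of -0.35 (SE 0.13, edgeR adjusted p = 0.29). Sem1, a small lid subunit, had 44.1 ± 5.51 and 38.0 ± 2.93 CPM, and Pomp, the chaperone that matures the core, had 65.4 ± 3.37 and 62.0 ± 3.76 CPM. Of 4 tested genes of this kind 0 passed and 4 were below 0, where 46.2% of all genes were. On unscaled TPM Pomp was above 0, at 0.11. Nfe2l1 (NRF1), the transcription factor that induces proteasome genes when proteasome activity is short, stood at 462, 545, 459, 502 and 511 CPM in Sham and at 412, 412, 327, 519 and 398 CPM in HLI, a log2FC of -0.26 (SE 0.13, adjusted p = 0.32). Its lowest library was HLI replicate 3 and its HLI replicate 4 lay within the Sham range. Among 6 regulators 0 passed, 4 had values below 0 (46.2% of all genes did) and 2 above. Syvn1, a ubiquitin ligase of the endoplasmic reticulum, was at -0.24 (SE 0.095) on the log2 scale.

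Among 15 genes of ubiquitin and substrate shuttling, 0 passed the test and 11 had values below 0 (73.3%, against 46.2% of all genes). Ubqln4, a shuttle that carries ubiquitylated proteins to the proteasome, stood at 71.3, 105, 79.1, 89.2 and 88.4 CPM in Sham and at 73.8, 63.0, 48.5, 79.6 and 67.9 CPM in HLI, a log2FC of -0.38 (SE 0.15, edgeR adjusted p = 0.29).

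Finally, 3 genes met the spelling rule without being distinct proteasome subunits. Psmc3ip (HOP2), a partner of meiotic recombinases named for binding PSMC3, averaged 1.35 ± 0.545 CPM in Sham libraries and 1.87 ± 0.414 CPM in HLI libraries, a log2FC of 0.48 (SE 0.31, edgeR adjusted p = 0.39). Psme3ip1, a partner of PA28γ, had 31.4 ± 1.83 and 29.5 ± 4.35 CPM (-0.089, SE 0.11, log2 scale), a direction that turned on TPM. Psme2b, a copy of Psme2, had 0.472 ± 0.316 and 0.831 ± 0.572 CPM, the latter set by HLI replicate 3 at 1.85 CPM, a log2FC of 0.79 (SE 0.53), or 0.26 without that library. In 10 of 10 libraries the deposited counts of Psme2 and of Psme2b were fractions that added up to a whole number within 0.011, so how reads were divided between this pair is uncertain. Psmb7, Psmb9, Psmc3ip and Psmd1 also had fractional counts.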

How the data were processed

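HISAT2 2.0, Bowtie 0.12.2 and mm8 appear in the submitters' processing notes, without a stated role. Counter, annotation and strand use: not given in the sources used here. Reads of overlapping or antisense genes therefore cannot be told apart. The protocol in the labels describes paired-end poly(A) sequencing and mentions adipose material, and the series text mentions cells, so handling is uncertain. The authors deposited 1 table with estimated counts, 93.4% of them whole and not normalized, and TPM values, per the file headers. All columns were used.

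Estimated counts were rounded and tested in R 4.3.3 with edgeR 4.0.16 (quasi-likelihood, TMM, filterByExpr, minimum count 10, minimum total 15, no covariate, Benjamini-Hochberg threshold 0.05). HLI was set against Sham over 13404 genes. The script was tested on simulated data. Alternatives were a replicate block, DESeq2's size factors, no filter, DESeq2 1.42.0, a robust prior, each library left out, and limma 3.58.1 on log2(TPM + 1) as deposited and on log2(TPM + 1) and log2(TPM + 0.1) after scaling by median of ratios. Leaving out Sham replicate 1 and HLI replicate 1 together was chosen after seeing the data. A list's score is the mean log2 CPM (prior count 2) of its tested members relative to the mean of the 10 libraries.

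Members, gene lists, patterns and tests were chosen with earlier results of these data known. Values are given in full for Psmb8, Psmb9, Psmb10, Psme1, Psme2, the subunits they replace, Psme3, Psme4, Psmf1, any called member and the 5 constitutive members with the smallest unadjusted p in each direction, and for the 2 such genes of each further list at 1 CPM or more, plus Nfe2l1, Pomp, Tap1, B2m and Irf1; some genes and 1 promoter pattern of these lists are not reported here. Psmd13, Psmd14, the 3 genes given apart (Psme2b could have counted as constitutive), Ptprc, Ifng and Myh3 were added after their values were seen.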

Additional observations from a re-analysis of the deposited data

Results flagged for a closer look

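In groups of 5 samples, 8 values lay apart from the other 4 by more than 0.71 of the range of their group, Dixon's 95% critical value. Chance alone flags about 5% of groups, and 134 groups were examined. In Sham, replicate 1 stood apart for Tap1 (20.4 CPM, others 12.7 to 13.5), for B2m (419 CPM, others 268 to 304), for the ratio of Psmb8 to Psmb5 (29.9%, others 15.9% to 19.001%) and for the ratio of Psmb9 to Psmb6 (6.26%, others 2.97% to 3.88%). In HLI, replicate 3 stood apart for Psmd9 (14.8 CPM, others 18.97 to 20.4) and for Psme2b (1.85 CPM, others 0.468 to 0.635). HLI replicate 4 stood apart for Psme4 (288 CPM, others 152 to 184), and Sham replicate 3 for Psmd14 (68.3 CPM, others 54.2 to 56.6).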

How the results depend on the processing

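The count of called genes was 0 with edgeR under the replicate block, DESeq2's size factors, no filter, a robust prior, all 10 leave-one-out fits (range 0 to 0) and all TPM fits, 45 with DESeq2 and 54 without Sham replicate 1 and HLI replicate 1, with 0 members in any. Whether samples of the same replicate number pair was not settled. Their correlations were -0.0078 to 0.273, 3 of 5 over 0.1, and 2 of 5 samples were closest to their own number. Under the block 2986 genes had an edgeR unadjusted p under 0.05, against 2262 without it. The median of the constitutive members was -0.15 under the block and that of the interferon-linked members 0.17. Leaving out single libraries moved these medians between -0.21 and -0.093 and between 0.072 and 0.29, the lowest of the latter without HLI replicate 1. Without both replicates 1 the medians were -0.23 and 0.099. On unscaled log2(TPM + 1) the constitutive median was 0.045, and these members, with Psme3ip1 and Pomp, turned above 0: Psmc3 0.051, Psmb4 0.049, Psmb1 0.042, Psma2 0.045, Psmd3 0.025, Psmb6 0.076, Psmc1 0.065, Psmb5 0.066, Psmg2 0.044, Psmd13 0.15, Psmd5 0.19, Psmd14 0.16, Psmd9 0.034, Psmc4 0.021, Psma1 0.064, Psme3ip1 0.21, Psma4 0.077, Psmf1 0.10, Psma3 0.094, Psma5 0.056, Psmb3 0.070, Psme3 0.098 and Pomp 0.11. Psme3ip1 was at 0.0026 and 0.0027 on scaled TPM. Psmg3 turned to -0.0020 with DESeq2's size factors, -0.0071 with DESeq2 and -0.034 without both replicates 1, and Psmg1 to -0.050 in the last. Psme2 turned to -0.0080, -0.0044 without the filter, -0.0099 with DESeq2, -0.041 without both replicates 1 and -0.022 on scaled TPM. Over leave-one-out fits 7 genes changed sign: Psmc6 (-0.058 to 0.19), Psmd13 (-0.084 to 0.017), Psmd14 (-0.10 to 0.025), Psme1 (-0.017 to 0.094), Psme2 (-0.029 to 0.048), Psmg1 (-0.049 to 0.070) and Psmg3 (-0.063 to 0.10). The unscaled fit lacks a correction for composition, and the cause of the other turns was not tested. Psmb8 had a log2 fold change of 0.36 to 0.54 over leave-one-out fits and an adjusted p no lower than 0.082, without HLI replicate 4. Low counts limit Psme2b and Psmc3ip most.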
